A study of Rattus norvegicus with 288 samples.

Results

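The response of rat liver to oxaliplatin was measured 1 h after dosing was completed. Male Sprague-Dawley rats, 8 weeks old and fitted with a cannula in the femoral vein, first received an intravenous infusion over 30 min, either of oxaliplatin at 15 mg per kg or of D5W, the dextrose solution in which it was given. An oral vehicle followed 30 min after the infusion, which was sterile water in some rats and F68/PG/PEG400 (called F68 here) in the others. The 16 liver arrays of these rats, of 288 arrays in the series, came from 8 rats given oxaliplatin and 8 given D5W, with 4 rats for each combination of infusion and oral vehicle and 1 array per rat. The effect of oxaliplatin was taken as the difference between oxaliplatin and D5W within each vehicle, averaged over both vehicles. A second set of 16 rats received the same infusions followed by an oral kinase inhibitor in place of the vehicle, either sunitinib at 5 mg per kg (given in water) or sorafenib at 25 mg per kg (given in F68). Dosing of the water and sunitinib groups took place on one day and that of the F68 and sorafenib groups on another, and vehicle and day cannot be told apart.

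Oxaliplatin is a platinum drug that forms adducts with DNA, which hinder its replication and transcription. In the liver it is known for injury to the sinusoidal endothelium, the perforated cell layer that lines the capillaries between plates of hepatocytes and takes up macromolecules from blood. These cells depend on VEGF signalling through Kdr and on scavenger receptors such as Stab1 and Stab2, while hepatocytes answer to insulin, glucocorticoids and fasting through genes such as Igfbp1 and Tat.

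Expression was read as log2 values on an Affymetrix whole-genome rat array. The 16 arrays had the markers of liver, with a median log2 level of 14.72 to 14.81 over liver genes, 6.01 to 6.33 over kidney genes and 5.15 to 5.89 over heart genes. Array medians lay between 6.69 and 6.74, and the difference between the 3′ and 5′ probe sets for beta-actin, a measure of RNA quality, between 0.79 and 0.93. An array carries no read depth, and the number of rats limits the precision. One rat, D5W then F68 replicate 2, stood apart in inflammatory genes, with Ccl2 at 10.55, Ccl4 at 10.84 and Tnfaip2 at 10.88. Several of the named values are given with and without it.

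Of 11619 genes tested, 402 (3.46%) differed between oxaliplatin and D5W at an adjusted p under 0.05 (limma with Benjamini-Hochberg adjustment, 8 rats against 8), of which 185 (1.59%) were higher and 217 (1.87%) lower with oxaliplatin. The rises were larger than the falls. Among the genes called, 15 rose at least 2-fold and 0 fell as far, and the median over all genes was -0.01 on the log2 scale. The 8 oxaliplatin rats all lay above the 8 D5W rats for 42 genes (0.361% of those tested) and all below them for 49 (0.422%). Without D5W then F68 replicate 2, 423 genes were called (198 higher and 225 lower).

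Genes of the vessel wall led the rises. Adamts1, a secreted metalloproteinase that cleaves matrix proteoglycans, read from 7.79 to 8.92 (median 8.27) in the D5W rats and from 9.85 to 10.64 (median 10.30) in the oxaliplatin rats. It was 4.04-fold higher with oxaliplatin (log2 2.01 ± 0.16, SE; adjusted p 5.51e-17), and the lowest oxaliplatin rat stood above the highest D5W rat. Thbd, thrombomodulin, which binds thrombin on endothelial cells and turns it towards activation of protein C, ran from 6.23 to 7.33 (median 6.75) with D5W and from 7.50 to 9.13 (median 8.72) with oxaliplatin. That amounted to 3.53-fold (log2 1.82 ± 0.14; adjusted p 5.51e-17), again with no overlap. Ackr3, a scavenging receptor for the chemokine CXCL12, lay between 7.49 and 8.36 (median 7.87) in D5W livers and between 9.27 and 10.02 (median 9.66) in oxaliplatin livers, a 3.40-fold rise (log2 1.77 ± 0.15; adjusted p 8.72e-15) without overlap.

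Further genes rose without overlap between the infusions. Ch25h, the enzyme that makes 25-hydroxycholesterol, read 5.15 to 5.56 (median 5.34) with D5W and 5.93 to 7.18 (median 6.46) with oxaliplatin (log2 1.22 ± 0.09; adjusted p 5.51e-17). All its D5W values lay below 6, the level that 4 or more arrays had to exceed for a gene to be tested. The oxaliplatin rats were enough to take Ch25h past that filter, and with no filter on low values it was still called. Inhbb, which encodes the beta B subunit of activins and inhibins, read 5.99 to 6.78 (median 6.25) against 7.02 to 8.22 (median 7.68), a log2 difference of 1.32 ± 0.12 (adjusted p 1.92e-13). Neither gene had an oxaliplatin rat within the D5W range. Rhob, a small GTPase of endosomes, went from 8.85 to 9.62 (median 9.21) up to 9.75 to 11.12 (median 10.30), with a log2 difference of 1.12 ± 0.14 (adjusted p 4.30e-09) and no overlap. Adamts4, a relative of Adamts1, ran from 6.53 to 6.98 (median 6.75) with D5W and from 7.31 to 8.06 (median 7.77) with oxaliplatin (log2 0.96 ± 0.08). Plaur, the receptor for urokinase, rose by 0.56 ± 0.08 on the same scale.

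Adamts1, Thbd, Ackr3, Ch25h, Adamts4 and Plaur belong to a list of 30 genes of the vessel wall that respond early, of which 20 could be tested. Of these, 7 rose (the 6 named and Ccl2), 0 fell and 13 were not called, and the list's median log2 difference was 0.30 beside -0.01 over all genes. Among all genes tested 1.59% rose. The list was drawn up with earlier results of these data known and is not independent evidence of its direction. Among its members not called were the shear-responsive factors Klf2 (log2 0.02) and Klf4 (0.02) and the adhesion molecules Icam1 (-0.21, and 0.06 without D5W then F68 replicate 2) and Vcam1 (-0.26, and -0.12 without that rat).

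**Figure D1:**
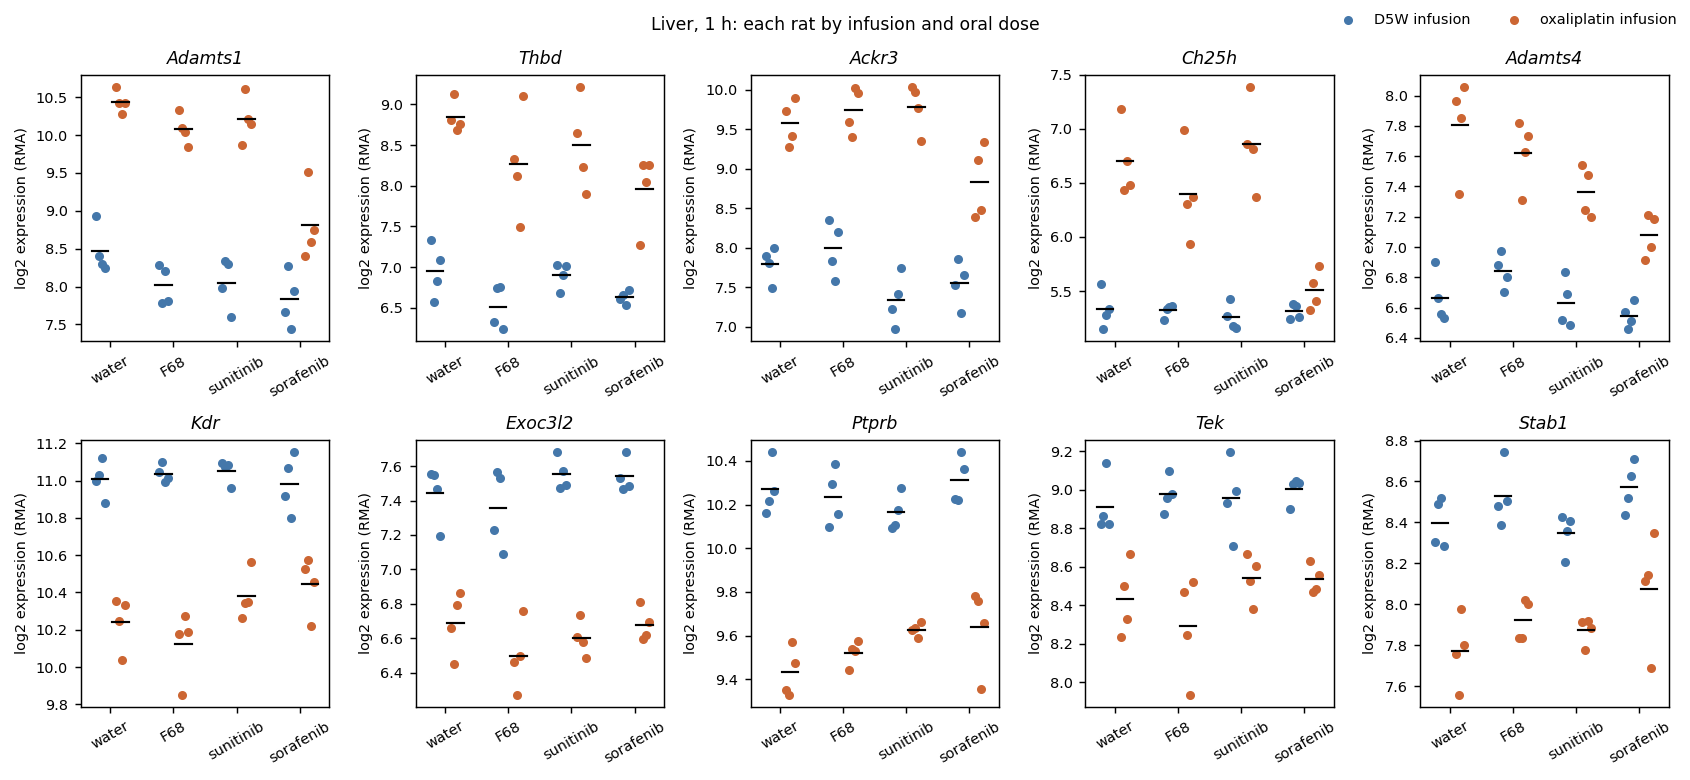
Log2 expression (vertical axis) of 10 genes in each rat of the 8 liver groups at 1 h, with D5W rats in blue, oxaliplatin rats in orange, the oral dose along the horizontal axis and black bars at the group means of 4 rats. With water and F68 the 2 infusions do not overlap for any of the 10 genes, and with sorafenib Ch25h stays near its D5W level.

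The 250 bases before the start of Adamts1 are shown because no gene rose further. They span chr11:38427385-38427634 on the minus strand of GRCr8 (sequence from RefSeq) and are printed 5′ to 3′ without capitals, since none of 6 motifs was found in them on either strand. The motifs searched were TGACGTCA, a site of CREB and ATF factors, TGANTCA (AP-1), ACANNNTGT (glucocorticoid receptor), CCGGAAG (ETS), GTAAACA (forkhead) and CACGTG (E-box).
Adamts1: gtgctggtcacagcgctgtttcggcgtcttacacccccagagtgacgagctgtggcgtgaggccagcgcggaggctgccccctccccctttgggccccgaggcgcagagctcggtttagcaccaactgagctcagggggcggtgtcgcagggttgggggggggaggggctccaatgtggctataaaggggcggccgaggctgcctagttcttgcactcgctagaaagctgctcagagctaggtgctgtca
The promoters of Ackr3 and Igfbp1 held none of the 6 either. RefSeq promoters were at hand for 22 of the 30 leading genes and for 9662 of the genes tested. A match is a description of the letters and not a site shown to be bound.

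Across these promoters TGACGTCA stood in 2.82% of all genes tested (272 of 9662), in 6.92% of those that rose (11 of 159) and in 0% of those that fell (0 of 177). For the other motifs the shares in genes that rose and in all genes were 8.18% and 4.51% (TGANTCA), 3.77% and 3.36% (ACANNNTGT), 15.7% and 14.5% (CCGGAAG), 1.26% and 2.14% (GTAAACA) and 10.1% and 8.22% (CACGTG). In genes that fell the shares were 5.08%, 3.95%, 7.34%, 1.13% and 9.6% in the same order. CCGGAAG was thus rarer in genes that fell than in all genes, by share. The comparison carries no test. The 11 windows with TGACGTCA among genes that rose are printed with the motif in capitals, so that its surroundings can be seen, and they were picked after the values were known.
Ch25h, chr1:241429425-241429454, minus strand, GRCr8: ggaaggaatgcTGACGTCAccgggggcggg
Wsb1, chr10:64717054-64717079, minus strand, GRCr8: gatggacTGACGTCAttcaccacacc
Lmcd1, chr4:146948790-146948819, plus strand, GRCr8: gccggctaaacTGACGTCAgggtagagttt
Brd2, chr20:4729846-4729875, plus strand, GRCr8: actggagtttgTGACGTCAtccttcaagcg
Jund, chr16:18769974-18770003, minus strand, GRCr8: ccccacccccaTGACGTCAacccacaatgc
Ppp1r15a, chr1:105139644-105139673, minus strand, GRCr8: cgcctctccggTGACGTCAgcatagcgctg
Nkrf, chrX:121010322-121010351, minus strand, GRCr8: tcaatggagagTGACGTCAgaggaagggaa
Lrrc8a, chr3:33908225-33908254, plus strand, GRCr8: gcgcccagccgTGACGTCActtccggggcg
Rbm18, chr3:39884588-39884617, minus strand, GRCr8: tgcgggcgtcaTGACGTCAcgggctggcgc
Akirin1, chr5:141289604-141289633, minus strand, GRCr8: gcgcacgcccgTGACGTCAcaggaggcggg
Wdr82, chr8:115693195-115693224, plus strand, GRCr8: gccagccccgcTGACGTCAtcgtcccgccc
Several of these genes are themselves early regulators. Jund encodes an AP-1 subunit, Ppp1r15a the phosphatase subunit that reverses phosphorylation of eIF2 alpha, and Brd2 a bromodomain protein that binds acetylated histones. Their log2 rises were 0.43 ± 0.11, 0.43 ± 0.09 and 0.48 ± 0.08.

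Immediate early genes, which answer a stimulus without new protein synthesis, rose in part. Of 24 tested, 5 rose and 0 fell, with a median of 0.06, when 1.59% of all genes rose and 1.87% fell. Atf3, a stress-induced repressor of the ATF family, read 5.82 to 7.81 (median 6.07) with D5W and 6.75 to 8.74 (median 7.61) with oxaliplatin (log2 1.25 ± 0.19; adjusted p 1.69e-06). Most oxaliplatin rats lay above most D5W rats, but 2 D5W rats, at 7.81 and 6.99, reached into their range. The zinc finger factor Klf6 rose by 0.89 ± 0.13, the mRNA-destabilising protein Zfp36 by 0.77 ± 0.14, Jund by 0.43 ± 0.11 and the survival factor Mcl1 by 0.38 ± 0.09. Mcl1 was not called when 1 of the 16 arrays was left out.

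The chemokines Ccl4 and Ccl2 rose and varied strongly among rats. Ccl4, which attracts monocytes and lymphocytes, read 8.07 to 10.84 (median 8.40) with D5W and 9.48 to 10.68 (median 10.10) with oxaliplatin. Its log2 difference was 1.36 ± 0.20 (adjusted p 5.07e-07) with all rats and 1.68 ± 0.16 (adjusted p 1.42e-13) without D5W then F68 replicate 2, the D5W rat at 10.84. Ccl2, which attracts monocytes, ran from 6.11 to 10.55 (median 7.23) with D5W and from 7.47 to 9.61 (median 8.54) with oxaliplatin, so the groups overlapped. Its log2 difference of 1.06 ± 0.30 (adjusted p 0.0313) was no longer called when any 1 of 8 arrays was left out, with an adjusted p of up to 0.125, while without the D5W rat at 10.55 it was 1.48 ± 0.27 (adjusted p 7.79e-05). Without that same rat Ccl3 stood at 0.59 ± 0.11 (adjusted p 2.61e-04), against 0.27 with it (adjusted p 0.513). Other chemokines, looked up after these values were seen, were not called, with Cxcl1 at 1.04 (adjusted p 0.461), Cxcl2 at 0.06 (0.35 ± 0.09 without that rat, adjusted p 0.0165) and Cxcl10 at -0.29 (0.13 without that rat). Ccl7 rose by 0.40 (adjusted p 0.0387).

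Igfbp1, Tat, Mfsd2a and Noct, all among the 15 largest rises, had larger standard errors than Adamts1, Thbd and Ackr3. Igfbp1, a liver protein that binds insulin-like growth factors, read 9.57 to 12.20 (median 11.11) with D5W and 11.47 to 13.82 (median 12.56) with oxaliplatin. The ranges overlapped, the rise was 3.08-fold (log2 1.62 ± 0.42; adjusted p 0.0116), and without D5W then water replicate 2 the adjusted p was 0.0527. Tat, which starts the breakdown of tyrosine, read 10.35 to 11.56 (median 11.17) against 10.76 to 12.95 (median 12.02), with a log2 difference of 1.07 ± 0.22 (adjusted p 9.94e-04) and overlapping groups. Mfsd2a, a transporter of lysophospholipids that carry docosahexaenoic acid, read 8.89 to 10.16 (median 9.58) against 10.52 to 11.27 (median 10.94), a log2 difference of 1.36 ± 0.24 (adjusted p 5.73e-05) with no overlap. Noct, a rhythmic gene, went from a median of 6.20 to 7.98 (log2 1.46 ± 0.43; adjusted p 0.0362), a call lost when any 1 of 10 arrays was left out, with an adjusted p of up to 0.129.

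While 1.59% of all genes tested rose, 5 of 21 glucocorticoid targets did and 0 fell, with a median of 0.24. They were Tat, the C/EBP factors Cebpd (0.99 ± 0.20) and Cebpb (0.74 ± 0.12), Klf9 (0.55 ± 0.15) and Errfi1 (0.18 ± 0.05), of which Klf9 and Errfi1 were not called when 1 of 4 and 1 of 2 arrays was left out. Without D5W then F68 replicate 2 Cebpd stood at 1.23 ± 0.18. Among 23 genes restrained by insulin or raised by fasting, Igfbp1 and Tat rose, 0 fell, and the median was 0.24. Of the remaining 2 leading rises, Enc1, a kelch protein that binds actin, had a log2 difference of 1.21 ± 0.23 (adjusted p 2.38e-04) and Rasgef1b, an exchange factor for Ras proteins, one of 1.13 ± 0.29 (adjusted p 0.0123).

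The falls were led by genes of the endothelium. Kdr, the main VEGF receptor of blood vessels, read 10.88 to 11.12 (median 11.02) in the D5W rats and 9.85 to 10.35 (median 10.22) in the oxaliplatin rats. Each of the 8 oxaliplatin rats was below every D5W rat, and the level was 1.79-fold lower (log2 -0.84 ± 0.07; adjusted p 1.69e-16). Ptprb, the phosphatase VE-PTP that acts on VE-cadherin and on Tek, read 10.10 to 10.44 (median 10.24) against 9.33 to 9.57 (median 9.50), with a log2 difference of -0.78 ± 0.07 (adjusted p 9.25e-15). Exoc3l2, an exocyst relative tied to VEGF receptor traffic in mouse endothelium, ran from 7.09 to 7.57 (median 7.50) down to 6.27 to 6.86 (median 6.58), or -0.80 ± 0.07 (adjusted p 2.09e-14). Neither overlapped between infusions.

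The largest fall was that of Clec14a, a C-type lectin of endothelial cells. It read 6.14 to 6.82 (median 6.43) with D5W and 5.14 to 6.01 (median 5.59) with oxaliplatin, which was 1.87-fold lower (log2 -0.91 ± 0.13; adjusted p 4.41e-07) with no overlap. Its promoter is printed as the counterpart to that of Adamts1, from chr6:81619557-81619806 on the minus strand of GRCr8 (RefSeq), with the single motif found in capitals, an E-box CACGTG that lies 53 to 58 bases before the start.
Clec14a: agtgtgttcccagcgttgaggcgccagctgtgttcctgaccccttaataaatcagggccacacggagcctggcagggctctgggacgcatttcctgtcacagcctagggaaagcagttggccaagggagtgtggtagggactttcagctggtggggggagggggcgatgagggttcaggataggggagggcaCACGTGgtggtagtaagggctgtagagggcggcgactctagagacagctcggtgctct
The E-box was held by 8.22% of all promoters, and the promoter of Foxa2, the next largest fall, held none of the 6 motifs.

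Among 18 markers of sinusoidal endothelium that could be tested, 0 rose, 8 fell and 10 were not called, and 17 had a negative difference (median -0.30). Among all genes tested 1.87% fell. The mean over the sinusoidal list was 9.08 to 9.23 in the D5W rats and 8.62 to 8.92 in the oxaliplatin rats, so the rats did not overlap. Stab1 and Stab2, scavenger receptors for hyaluronan and other waste macromolecules, fell by 0.62 ± 0.08 and 0.63 ± 0.11 on the log2 scale, from 8.29 to 8.74 down to 7.56 to 8.02 and from 10.04 to 10.43 down to 9.45 to 9.87. Mrc1, the mannose receptor, read 10.75 to 11.14 (median 10.85) against 9.87 to 10.50 (median 10.21), a difference of -0.68 ± 0.09. Tek, the receptor for angiopoietins, read 8.82 to 9.14 (median 8.92) against 7.94 to 8.67 (median 8.40), a difference of -0.58 ± 0.07. For each of these 4 receptors the highest oxaliplatin rat was below the lowest D5W rat. The zonation-linked factor Gata4 (-0.42 ± 0.09) and the ligand Bmp2 (-0.32 ± 0.10) also fell, the latter not called when any 1 of 10 arrays was left out.

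Other defining markers of the same cells did not pass the test, with log2 differences of -0.26 for Lyve1, -0.38 for Ehd3, -0.12 for Eng and -0.04 for Flt4. In whole tissue fewer cells of a type and less RNA per cell cannot be told apart.

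Markers shared by all endothelial cells moved both ways. Of 25 tested, 2 rose and 8 fell (median -0.10), when 1.59% of all genes rose and 1.87% fell. Besides Kdr, Ptprb, Exoc3l2 and Tek, the transcription factor Sox18 (-0.56 ± 0.09), Mmrn2, a matrix ligand of Clec14a (-0.40 ± 0.08), the ETS factor Erg (-0.29 ± 0.07) and Vwf (-0.23 ± 0.07) fell, the last not called without any 1 of 11 arrays. Rasip1, a Rap1 effector needed for vessel lumens, rose with no overlap, from 7.44 to 7.81 (median 7.63) up to 7.93 to 8.48 (median 8.16), a log2 difference of 0.52 ± 0.06 (adjusted p 2.40e-09). Egfl7, a secreted endothelial protein, rose by 0.31 ± 0.08 and lost its call without any 1 of 3 arrays. Pecam1 (-0.20), Tie1 (-0.06) and Flt1 (-0.21) were not called. Of 29 genes of VEGF, Notch and BMP signalling, the co-receptor Nrp1 (-0.41 ± 0.09) fell with Kdr, Tek and Bmp2, and Id1, a target of BMP signalling, rose by 0.51 ± 0.10.

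**Figure D2:**
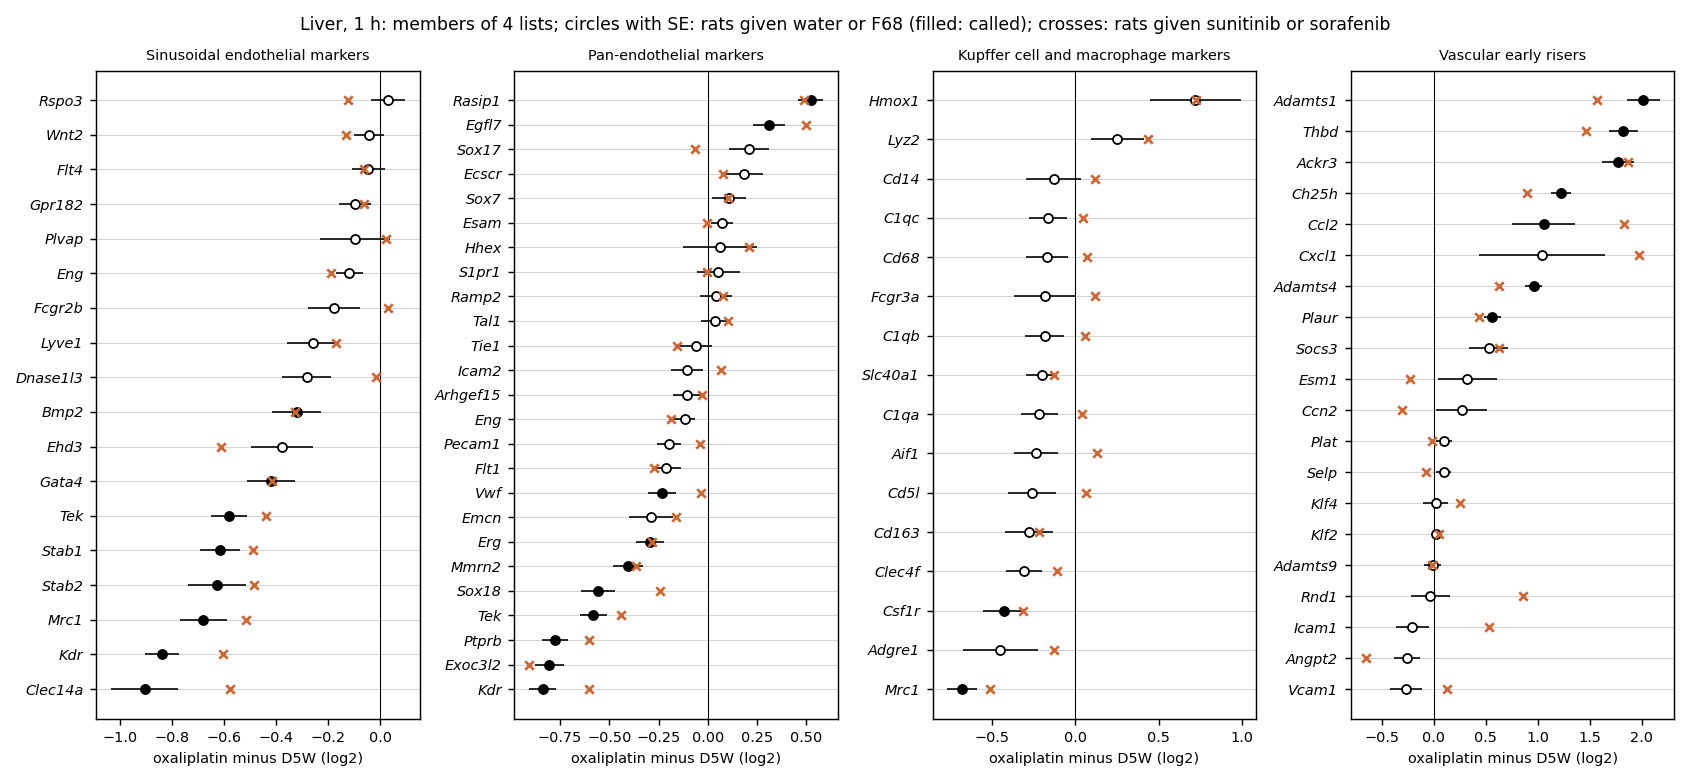
Log2 difference of oxaliplatin minus D5W in liver at 1 h (horizontal axis) for each tested member of 4 lists, with circles and SE bars for rats given water or F68 (filled where called, 8 rats against 8) and crosses for rats given sunitinib or sorafenib. Of the 18 sinusoidal markers 17 lie below 0, and 7 of the 20 vascular early risers are filled and above 0.

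Among markers of other liver cells, calls came only from the macrophage and stellate lists, when 1.59% of all genes tested rose and 1.87% fell. Of 16 Kupffer cell and macrophage markers 0 rose and 2 fell (median -0.21, with 14 negative), namely Mrc1, which sinusoidal endothelium also expresses, and Csf1r, the receptor for macrophage colony stimulating factor (-0.43 ± 0.13, lost without any 1 of 9 arrays). The Kupffer cell lectin Clec4f stood at -0.31, Cd68 at -0.17 and Adgre1 at -0.45, none of them called. Of the 16 Kupffer cell and macrophage markers, 6 had an unadjusted p under 0.05 by limma, beside 14.0% of all genes tested. Of 17 stellate and fibroblast markers, Reln, a secreted glycoprotein, fell by 0.44 ± 0.08. None of 9 liver, 6 bile duct, 15 lymphocyte, 4 neutrophil and 4 red-cell markers was called by limma, with 3 of these 38 genes (7.89%) at an unadjusted p under 0.05 beside 14.0% of all genes tested, and Alb differed by -0.01.

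Some falls lay outside the endothelial lists. Foxa2, a pioneer factor of hepatocytes, ran from 8.88 to 10.89 (median 9.74) with D5W and from 8.51 to 9.26 (median 9.04) with oxaliplatin, overlapping, with a log2 difference of -0.84 ± 0.25 (adjusted p 0.0388) that was lost when any 1 of 8 arrays was left out, with an adjusted p of up to 0.174. Arrdc3, an alpha-arrestin that acts on beta-adrenergic receptors, ran from 11.30 to 13.40 (median 12.79) and from 10.65 to 12.62 (median 11.83), a difference of -0.83 ± 0.17 (adjusted p 0.00107) with wide overlap. When only the 16 arrays of the comparison were fitted by limma, Arrdc3 was not called (adjusted p 0.0711). The transcription factors Meis2 (-0.79 ± 0.10) and Maf (-0.78 ± 0.10) fell with no overlap, as did Fam171a1 (-0.64 ± 0.10) and the cytochrome P450 Cyp4b1 (-0.62 ± 0.09). Meis2 read low, at 5.68 to 6.20 with D5W and 4.95 to 5.47 with oxaliplatin, the latter all below the filter level of 6. The phospholipase Pla2g4a fell by 0.67 ± 0.16. Tnfaip2, a gene induced by TNF, differed by -0.66 ± 0.18 (adjusted p 0.0185) with all rats and by -0.40 ± 0.15 (adjusted p 0.142) without D5W then F68 replicate 2, in which it read 10.88.

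Genes that fell were long. The locus, from the first to the last base of the gene in RefSeq GRCr8, had a median of 22.8 kb over the genes tested, 14.2 kb over those that rose and 92.6 kb over those that fell. Loci over 100 kb made up 12.9% of all genes tested (1495 of 11578 with a length), 3.24% of those that rose (6 of 185) and 47.2% of those that fell (102 of 216). By length, 0.825% of genes under 10 kb, 0.895% of those of 10 to 30 kb, 1.69% of those of 30 to 100 kb and 6.82% of those over 100 kb fell, while 2.24% of the shortest and 0.401% of the longest class rose. The share that fell was thus highest in the longest class and the share that rose lowest there. The pattern was noticed in these data and carries no test of its own, and the cell type in which a gene is expressed was not separated from its length.

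Long genes that fell included Stab2 (206 kb), Ptprb (105 kb), Tek (127 kb), Maf (363 kb), Meis2 (202 kb), Pla2g4a (144 kb) and Fam171a1 (124 kb), while Clec14a (3.14 kb), Foxa2 (4.20 kb) and Arrdc3 (12.5 kb) are short and Rasgef1b, which rose, spans 520 kb. Outside these, and chosen by length after their values were seen, the phagocytic receptor Mertk fell by 0.55 ± 0.11, the kinase Prkcb by 0.57 ± 0.14, the exchange factor Vav3 by 0.48 ± 0.07 and the ubiquitin ligase Marchf1, at 859 kb, by 0.49 ± 0.13. Of the falls, the 15 in an endothelial list had a median of 71.7 kb and 40.0% over 100 kb, the 202 others 94.2 kb and 47.8%, and the 62 tested members of those lists 20.6 kb and 16.1%. Genes that fell had a median D5W level of 8.12, those that rose 8.35 and all genes 8.37.

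**Figure D3:**
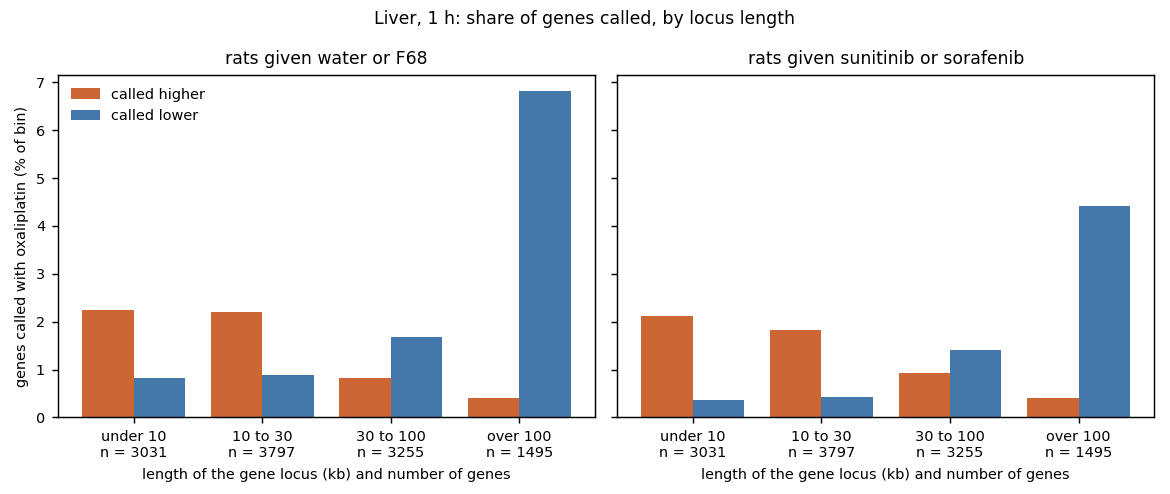
Share of genes called higher (orange) and lower (blue) with oxaliplatin in liver at 1 h (vertical axis, percent of the class) in 4 classes of locus length in kb (horizontal axis, with the number of genes), for rats given water or F68 and for rats given sunitinib or sorafenib. Over 100 kb, 6.82% of genes fell and 0.401% rose with the vehicles, and 4.41% fell and 0.401% rose with the kinase inhibitors.

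Among responses known from DNA damage, 1 of 18 p53 targets rose and 0 fell at this time, when 1.59% of all genes rose and 1.87% fell. The target called was Cdkn1a, the cell cycle inhibitor p21, which rose by 0.73 ± 0.19 (adjusted p 0.0138). It went from 7.82 to 9.54 (median 8.38) up to 8.65 to 9.86 (median 9.07) with overlap. Its call was lost without D5W then water replicate 4 (0.60, adjusted p 0.0682) and when only the 16 arrays of the comparison were fitted. Mdm2, the ligase that degrades p53, read 8.84 to 9.10 with D5W and 8.93 to 9.34 with oxaliplatin and was not called (0.13 ± 0.08). The p53 list had a median of 0.10 with 15 of its 18 members positive, and 4 had an unadjusted p under 0.05 by limma, beside 14.0% of all genes. None of 19 DNA repair genes was called by limma, nor, in lists of other kinds, any of 17 Nrf2 targets, 11 heat shock genes and 10 platinum or cation transporters. An unadjusted p under 0.05 was held by 0 of the DNA repair genes, 3 Nrf2 targets, 4 heat shock genes and 1 transporter. Together these were 8 of 56 genes (14.3%, a gene in both of 2 lists counted once) beside 14.0% of all genes. That share joins unlike lists, with 4 of 11 heat shock genes and 0 of 19 DNA repair genes. For 1 Nrf2 target all 8 oxaliplatin rats lay above all 8 D5W rats, as for 0.361% of all genes. In the joint fit of 3 tissues given below, 3 p53 targets, 2 heat shock genes, 1 Nrf2 target and 1 transporter were called higher in liver, as were 390 of all 10537 genes.

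The other lists differed in how many members passed the test, which 3.46% of all genes passed. Ribosome biogenesis factors had 3 rises (Gnl3, Gar1 and Tsr1, at 0.43, 0.38 and 0.35) and 0 falls, with 30 of 32 members positive and a median of 0.12. Of 12 ERK feedback genes 2 rose and 0 fell, and of 15 NF-kB feedback genes 1 rose and 2 fell. The ERK feedback gene Spry4 rose by 0.32 ± 0.07 and Insig1, which holds back sterol synthesis, by 0.53 ± 0.16. Nfkbiz, a nuclear member of the I kappa B family, rose by 0.60 ± 0.18, and by 0.74 ± 0.18 without D5W then F68 replicate 2. Nfkb1 differed by -0.19 ± 0.06 (adjusted p 0.0495), and by -0.11 ± 0.05 (adjusted p 0.281) without D5W then F68 replicate 2. Of 26 hepatocyte transcription factors 3 rose and 3 fell, with a median of 0.02. Among them Foxa3 rose by 0.46 ± 0.14 and Nr2f2 fell by 0.25 ± 0.07. Each of Tsr1, Nfkbiz, Insig1, Nfkb1, Foxa3 and Nr2f2 lost its call without any 1 of 6 to 11 arrays, and Gnl3 and Gar1 without any 1 of 3 and 5. No hypoxia, cholesterol synthesis, fatty acid oxidation, bile acid, drug metabolism, proliferation or interferon gene of the lists was called by limma, with 5 of 118 (4.24%) at an unadjusted p under 0.05 beside 14.0% of all genes.

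The rats given a kinase inhibitor after the infusion gave a comparison with no array in common. In them 309 genes (2.66%) differed between oxaliplatin and D5W, with 169 higher and 140 lower. Of the 185 genes that rose with the vehicles, 177 (95.7%) had a positive difference in the kinase inhibitor rats, against 50.5% of all genes tested, and 84 were called. Of the 217 that fell, 194 (89.4%) had a negative one, against 49.5% of all genes, and 90 were called. None was called in the opposite direction, and the 174 genes called in both sets of rats were 43.3% of the 402 and 56.3% of the 309. The difference between both effects was called for 0 genes (0%), with 792 at an unadjusted p under 0.05. Across all genes tested the effects had a Pearson r of 0.456, given as a description since genes are not independent replicates.

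**Figure D4:**
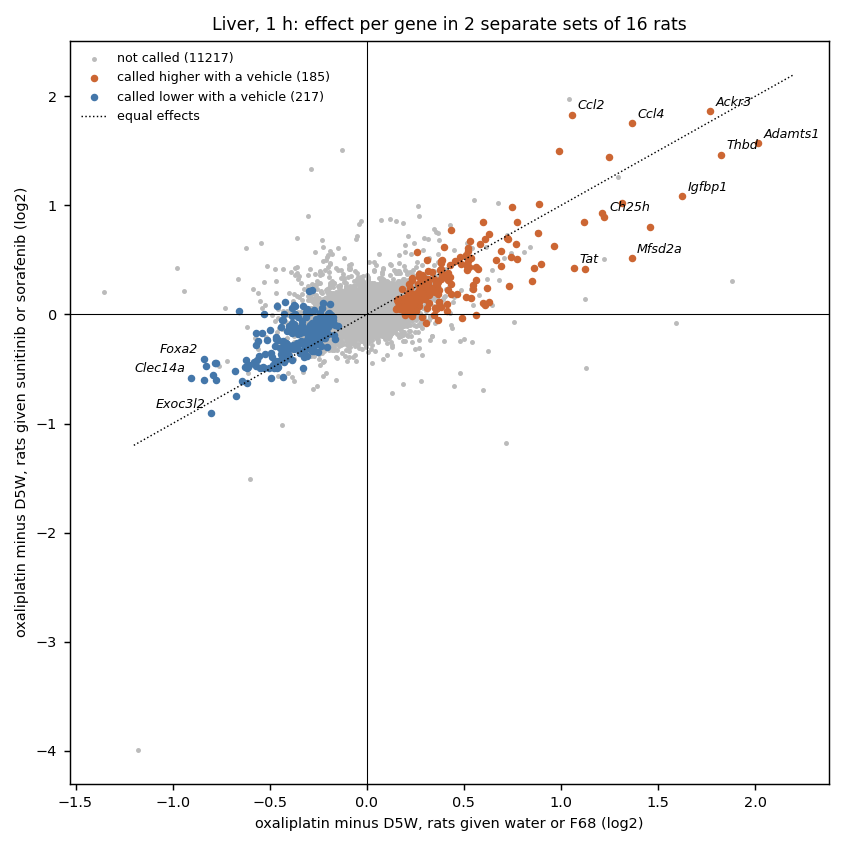
Log2 difference of oxaliplatin minus D5W in liver at 1 h for each gene tested, in rats given water or F68 (horizontal axis, 8 against 8) and in rats given sunitinib or sorafenib (vertical axis, another 8 against 8). The genes called higher with a vehicle (orange, 185) and lower (blue, 217) have the same sign on the vertical axis in 177 and 194 cases, and the dotted line marks equal effects.

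The leading genes kept their sign in those rats in 29 of 30 cases, the exception being Tnfaip2 at 0.03. Adamts1 rose by 1.57 ± 0.16 on the log2 scale, Thbd by 1.46 ± 0.14, Ackr3 by 1.86 ± 0.15 and Atf3 by 1.44 ± 0.19. Kdr fell by 0.61 ± 0.07, Ptprb by 0.60 ± 0.07, Exoc3l2 by 0.91 ± 0.07 and Clec14a by 0.58 ± 0.13. Of the sinusoidal markers 10 fell and 0 rose, when 1.2% of all genes fell and 1.45% rose in these rats. Of the 21 glucocorticoid targets 3 rose (median 0.28), and of the 23 insulin or fasting genes 0 were called (median 0.09). Cebpd and Cebpb (0.53) rose and Gata4 (-0.42) fell in these rats. Of the 15 leading rises 10 were called in them by limma, and of the 15 leading falls 12 were. Rises not called were Igfbp1 (1.08, adjusted p 0.193), Noct (0.80, adjusted p 0.468), Mfsd2a (0.52, adjusted p 0.364), Rasgef1b (0.42, adjusted p 0.642) and Tat (0.42, adjusted p 0.463). Falls not called were Foxa2 (-0.41, adjusted p 0.570), Arrdc3 (-0.47, adjusted p 0.167) and Tnfaip2 (0.03). The length pattern was present too, with 47.5% of the genes that fell and 3.55% of those that rose over 100 kb, and TGACGTCA stood in 7.04% of the promoters of genes that rose (10 of 142) and 1.72% of those that fell (2 of 116).

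Oxaliplatin followed by sunitinib changed 179 genes (1.54%) and followed by sorafenib 44 (0.379%), and the effects differed for 5 genes (0.043%), a comparison added after the chemokine values had been seen. All 5 were higher with sunitinib. Ccl2 rose by 3.42 ± 0.43 with sunitinib and stood at 0.25 with sorafenib (difference 3.17 ± 0.61, adjusted p 0.0053). Ccl4 stood at 2.77 and 0.73 (difference 2.03 ± 0.39) and Ccl7, another monocyte chemokine, at 1.30 and -0.07 (difference 1.36 ± 0.24). Ch25h rose by 1.60 ± 0.13 with sunitinib and stood at 0.20 with sorafenib (difference 1.40 ± 0.19, adjusted p 1.89e-06), while it rose by 1.07 in the rats given F68, the vehicle of sorafenib. Pdgfa, a growth factor for mesenchymal cells, stood at 0.59 and -0.14 (difference 0.73 ± 0.15). Drug and day of dosing cannot be told apart here, and leaving out any 1 of the 16 kinase inhibitor rats left 3 to 6 genes. When only the 32 liver arrays at 1 h were fitted, Ccl2, Ccl4 and Ccl7 were not called. Ch25h and Pdgfa were called then, with Slc25a25 in addition. Group means of Ch25h with D5W were 5.26 before sunitinib and 5.31 before sorafenib, below the filter level of 6.

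With water as the oral vehicle 216 genes (1.86%) were called and with F68 73 (0.628%), 4 rats against 4 in each, but the effects of oxaliplatin differed between vehicles for 0 genes by limma (0%), with 522 at an unadjusted p under 0.05. Of the 15 leading rises 13 were smaller with F68 when all rats were used, for example Igfbp1 at 2.38 with water and 0.87 with F68. Ccl2 stood at 1.66 and 0.45 and Ccl4 at 1.66 and 1.07, but their F68 values include D5W then F68 replicate 2. Without that rat the effect over both vehicles was 1.48 ± 0.27 for Ccl2 and 1.68 ± 0.16 for Ccl4. These averages are not effects with F68 alone, which were not examined without that rat, so both genes count among the 13 only with all rats. Arrdc3 fell by 1.61 with water and stood at -0.04 with F68, a difference of 1.57 (adjusted p 0.272). Adamts1 (1.97 and 2.06) and Ackr3 (1.78 and 1.75) had nearly the same values with both vehicles, and so had Mrc1 (-0.68 and -0.68) and Exoc3l2 (-0.75 and -0.86).

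At 6 h after dosing, in other rats, oxaliplatin changed 1207 liver genes (10.4%), and at 24 h 746 (6.42%). The effect differed from that at 1 h for 150 genes at 6 h (1.29%) and for 391 at 24 h (3.37%). Of the 15 leading rises 0 were called at 6 h and 10 had a smaller effect then by the test of the difference, among them Adamts1 (log2 0.32 at 6 h), Thbd (0.30), Ackr3 (0.37), Inhbb (-0.08), Ch25h (-0.17) and Atf3 (-0.02). At 24 h Igfbp1 alone of the 15 was called (1.36, adjusted p 0.0347). None of these 6 genes differed between oxaliplatin and D5W at 6 h by the test.

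The falls lasted longer for some genes. Of the 15 leading falls, 5 were called at 6 h, namely Stab2 (-1.10), Mrc1 (-0.59), Pla2g4a (-0.55), Arrdc3 (-0.51) and Ptprb (-0.40), while 8 had a smaller effect at 6 h by the test of the difference, among them Kdr (-0.18), Clec14a (0.09) and Exoc3l2 (0.08). The larger fall of Stab2 at 6 h did not pass that test (adjusted p 0.131). Ptprb (-0.35) and Stab2 (-0.36) were still lower at 24 h, and Cyp4b1 was higher (0.31). Of the sinusoidal markers 6 fell and 0 rose at 6 h. Genes over 100 kb made up 47.2% of the falls and 3.08% of the rises at 6 h. At 24 h they made up 10.7% of the falls and 10.1% of the rises, beside 12.9% of all genes tested. At 6 h, when 6.72% of all genes were called higher and 3.67% lower, 6 of 18 p53 targets were higher (Cdkn1a 1.44, Mdm2 0.76) and 1 lower, 17 of 32 ribosome biogenesis factors were higher, and 5 of 16 Kupffer cell and macrophage markers were lower. At 24 h, when 4.69% of all genes were called lower, 9 of these markers were. Whether these lists changed between times was not tested.

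**Figure D5:**
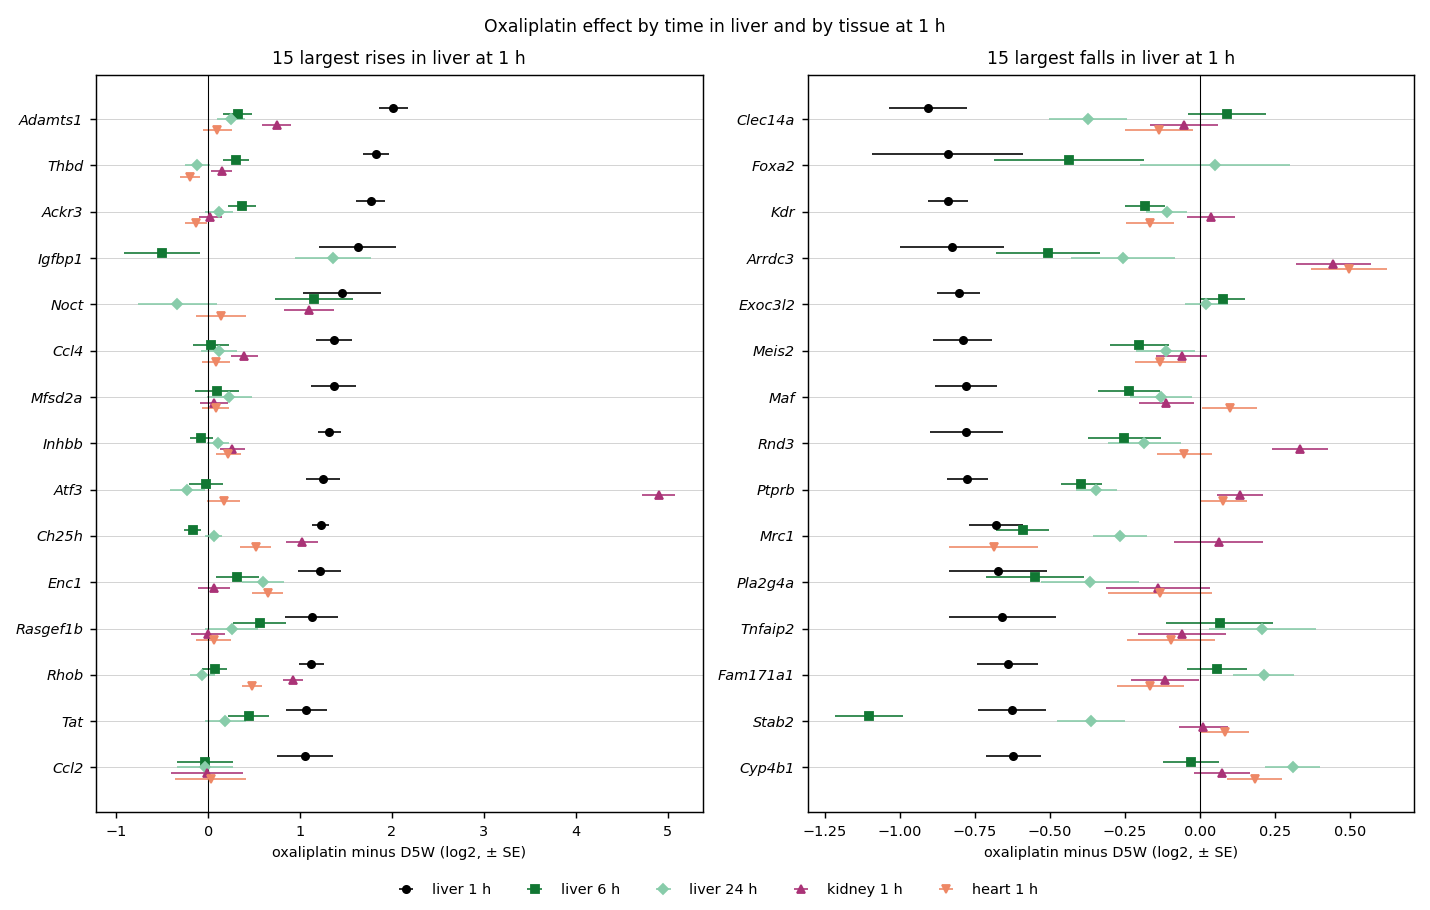
Log2 difference of oxaliplatin minus D5W (horizontal axis, with SE bars, 8 rats against 8) for the 15 largest rises and the 15 largest falls in liver at 1 h, in liver at 1, 6 and 24 h and in kidney and heart at 1 h where the gene could be tested. Adamts1, Thbd and Ackr3 stand at 1.77 to 2.01 in liver at 1 h and at 0.30 to 0.37 at 6 h, and Atf3 stands at 4.90 in kidney.

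The same rats gave kidney and heart, whose arrays the labels do not tie to a rat. In a joint fit of 10537 genes, the effect at 1 h differed between liver and kidney for 159 (1.51%) and between liver and heart for 235 (2.23%). Oxaliplatin against D5W was called there for 798 genes in liver (7.57%), 853 in kidney (8.1%) and 56 in heart (0.531%). The liver count is higher than the 402 of the fit to liver arrays alone. Thbd stood at 1.82 in liver, 0.14 in kidney and -0.20 in heart, and Ackr3 at 1.77, 0.02 and -0.14, with each difference from liver called. Adamts1 rose in kidney too (0.75) but less than in liver (difference 1.27). Ch25h and Rhob rose in kidney by 1.02 and 0.92, values whose difference from liver was not called. Atf3 rose further in kidney (4.90, difference -3.65), where 18 of 24 immediate early genes rose, beside 6 in liver in the same fit and 0 in heart. Of all genes in the fit 432 rose in kidney, 390 in liver and 18 in heart.

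Endothelial falls were called in liver and mostly not elsewhere. Kdr stood at -0.84 in liver, 0.04 in kidney and -0.17 in heart, Ptprb at -0.78, 0.13 and 0.08, and Clec14a at -0.91, -0.05 and -0.14, with every difference from liver called. Tek fell by 0.58 in liver and rose by 0.20 in kidney (difference -0.78). Stab1 (-0.63) and Mrc1 (-0.69) fell in heart as in liver, and Arrdc3 went up in kidney (0.44) and heart (0.50). Of 17 sinusoidal markers in this fit, 9 fell in liver, 0 in kidney and 2 in heart, and 1 rose in kidney. Among all genes in the fit 408 fell in liver, 421 in kidney and 38 in heart, so that heart had few calls of any kind. The effect in liver differed from kidney for 7 of the 17 markers and from heart for 5.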

How the data were processed

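Total RNA from the left lateral and median liver lobes was labelled and hybridised to Affymetrix whole-genome rat arrays, and the authors deposited log2 expression values per probe set, made by RMA (robust multi-array averaging, whose version is not given in the sources used here). RMA corrects background, quantile-normalizes arrays and summarises probes, so that a shift common to all genes would not be seen. Whether tissues were normalized together was not stated. Probe sets with 1 gene symbol were used (20832 of 31099), the probe set with the highest liver mean stood for its gene, and a gene was tested where 4 or more arrays exceeded 6 on the log2 scale. A model of 24 group means was fitted to 95 liver arrays with limma 3.58.1 in R 4.3.3 (lmFit, contrasts.fit, eBayes), and p-values were adjusted by Benjamini-Hochberg over all 11619 genes. One liver array at 24 h, from the group given D5W then sorafenib, carried kidney markers and was left out. Tissues were compared in a joint fit of genes that passed the filter in all 3, with each array treated as independent. The fit was tested on simulated data.

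Named genes were the 15 largest rises and the 15 largest falls among genes called (1 of these falls is counted but not reported here, and symbols starting with LOC, RGD or Olr were not named), up to 5 called members of each gene list, and defining cell markers. The genes, lists and comparisons were chosen with earlier results of these data known. Promoters, locus lengths and coordinates came from RefSeq tables of GRCr8, which are independent of the array's design. Alternatives covered the samples fitted, array weights, the variance prior, the filter, the probe set per gene, normalization, RNA quality, the vehicle and each rat left out in turn. The labels give no replicate numbers, and the numbers printed only count the arrays of a group.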

Additional observations from a re-analysis of the deposited data

Results flagged for a closer look

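For the 30 leading genes, each group of 4 rats was examined for a rat far from the other 3. This held for 10 of 120 combinations of gene and group, in 8 genes, where chance gives about 1 in 20. Atf3 read 7.81 in D5W then water replicate 1 against 5.82 to 6.14 in the other rats of the group. Ccl4 read 10.84 in D5W then F68 replicate 2 against 8.07 to 8.52, and Foxa2 10.38 in D5W then F68 replicate 4 against 8.88 to 9.05. Clec14a was low in 2 D5W rats, at 6.14 in water replicate 2 (the others 6.72 to 6.82) and at 6.25 in F68 replicate 4 (6.41 to 6.43). Among oxaliplatin rats Ccl2 read 9.17 in F68 replicate 1 against 8.21 to 8.27. In F68 replicate 3, Tat read 10.76 against 11.97 to 12.06, Stab2 9.87 against 9.47 to 9.53 and Fam171a1 6.13 against 6.63 to 6.72. Fam171a1 was also low in water replicate 1, at 6.44 against 6.73 to 6.79.

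Effects differed between times by the test of the difference for 150 genes (6 h against 1 h) and 391 genes (24 h against 1 h). Among the most certain were Ch25h (-1.39), Inhbb (-1.39) and Exoc3l2 (0.88) at 6 h minus 1 h on the log2 scale, and Thbd (-1.94), Ch25h (-1.16) and Exoc3l2 (0.82) at 24 h minus 1 h. For Exoc3l2 the positive sign means a smaller fall later. Ch25h read below the filter level of 6 in all D5W rats given a vehicle at 1 h.

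Between tissues at 1 h the effect differed for 159 genes (liver against kidney) and 235 genes (liver against heart). Liver minus kidney was -3.65 for Atf3, 1.68 for Thbd and 1.74 for Ackr3, and liver minus heart 2.02 for Thbd, 1.90 for Ackr3 and 1.92 for Adamts1. Between rats given sunitinib and sorafenib the effect differed for 5 genes, with differences of 3.17 for Ccl2, 2.03 for Ccl4, 1.40 for Ch25h, 1.36 for Ccl7 and 0.73 for Pdgfa. Of these, Ccl2, Ccl4 and Ccl7 were not called when only the 32 liver arrays at 1 h were fitted.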

How the results depend on the processing

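The count of 402 genes became 255 with all liver arrays as labelled, 783 with array weights, 216 with water only and 73 with F68 only, and 286 to 438 when 1 rat was left out. The 309 genes of the kinase inhibitor rats became 548 with array weights (251 to 352 with a rat left out). The effect of the vehicle, 0 genes, became 1 (Phlda1, -0.67) with the filter at 5 or without a filter and 0 to 1 with a rat left out. The difference between kinase inhibitor and vehicle rats, 0 genes, became 1 with array weights (Bcr, 0.36) and 1 with the mean of all probe sets (Tnrc6b, 0.35), and 0 to 2 with a rat left out. The 5 genes between sunitinib and sorafenib became 3 with only the 32 arrays at 1 h, 10 with array weights and 3 to 6 with a rat left out. With only the 32 arrays the 3 were Ch25h, Pdgfa and Slc25a25, so that Ccl2, Ccl4 and Ccl7 lost their calls. The 150 genes between 6 h and 1 h became 64 with arrays as labelled, 448 with array weights and 92 to 179 with a rat left out (92 without oxaliplatin then F68 replicate 1 at 6 h and 96 without D5W then water replicate 4 at 6 h). The 391 between 24 h and 1 h became 236 with arrays as labelled, 742 with array weights and 266 to 458 with a rat left out. The settings for tissues, sunitinib against sorafenib and rats left out at other times were added after the data were seen, and the tissue counts stayed within 1.5 times.

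Of the 65 genes examined one by one, 0 changed direction in any setting. Of these, 12 lost their call with only the 16 arrays, 17 with arrays as labelled, 20 with water only, 39 with F68 only and 0 with array weights. The 12 were Ccl2, Foxa2, Arrdc3, Tnfaip2, Egfl7, Vwf, Nr2f2, Cdkn1a, Nfkbiz, Nfkb1, Tsr1 and Gar1. The share of falls over 100 kb was 44% to 50% in every setting but those of a single vehicle, where it was not computed. Of 14 other probe sets of 9 leading genes all had the same sign, and 9 were smaller by over 1.5 times, namely Thbd (0.60), Enc1 (0.54), Rasgef1b (0.52), Ptprb (-0.38), Maf (-0.23), Tnfaip2 (-0.38, -0.01 and -0.41) and Fam171a1 (-0.01). No paired analysis was possible because the labels give no replicate numbers. The number of rats and the day of dosing, which goes with the vehicle, limit these values.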
